A study of Mus musculus with 12 samples.

Results

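Maternal-effect genes are genes whose products are laid down in the oocyte and used by the embryo before and while its own genome is switched on. Here 10 such genes (Zar1, Nlrp5, Nlrp14, Nlrp4f, Ooep, Padi6, Khdc3, Tle6, Btg4 and Bcl2l10), chosen by name from the 55401 genes of the count tables, were described in mouse totipotent potential stem (TPS) cells and extended pluripotent stem (EPS) cells. TPS cells were kept on feeders in a medium that the labels name VCED and that uses 4C basic medium. The study's text names its TPS condition CPEC, and it was assumed here that both names mean one cocktail. For CPEC the text lists VPA, which inhibits histone deacetylases, EPZ004777, which inhibits DOT1L, CD1530, an agonist of retinoic acid receptor gamma, and a GSK3 inhibitor. EPS cells were grown in LCDM medium, also on feeders. There were 3 TPS lines and 3 EPS lines, and each line was sequenced as 2 technical replicates, which gave 12 libraries. The labels give no strain for the lines, and they leave unsaid whether TPS and EPS lines that bear one number are related. With 3 lines against 3, all tests measure the spread between these lines, and an exact permutation test of a single gene could not go below p = 0.1.

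The products of several of these genes, OOEP, NLRP5, TLE6, KHDC3 and PADI6 among them, assemble in the oocyte into the subcortical maternal complex, a structure under the cell membrane that is passed on to the blastomeres. Loss of many of its members in the mother arrests embryos at early cleavage, and the complex and the fibrous cytoplasmic lattices are tied to organelle positioning, spindle placement and storage of maternal proteins. ZAR1 binds and stores maternal mRNAs, and BTG4 links the CCR4-NOT deadenylase to them when they are cleared, so both act on RNA rather than in the complex. NLRP14 and NLRP4F are further germ-line NLR family proteins, and BCL2L10 is a BCL2 family member found at high level in oocytes.

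The libraries held 13676051 to 21821707 counts each. Levels are given as CPM, counts scaled to the library total and edgeR's TMM factor, with both technical replicates of a line added together. As a description of the libraries, the summed CPM of a list of 2-cell-stage genes was 309 to 423 in TPS lines and 0.142 to 0.163 in EPS lines. Since those of its genes that were tested passed the filter for low counts through the TPS lines alone, no count of calls is given for it. In EPS lines each of the 4 with the largest fitted change (Zscan4a, Gm8300, Zscan4c and Gm5662) had at most 2 counts in any library, and their TPS means were at least 173-fold higher than a floor of 3 counts in an EPS line. Such genes lie in families of close copies, so reads may have been split between them. Of 8 pluripotency markers 4 were lower in TPS lines (Pou5f1, Esrrb, Dppa5a and Tdgf1) and 0 higher, where 7.34% and 14.4% of all tested genes were, and all 8 were expressed in every line. Without TPS line 1 the count lower was 2, with Pou5f1 and Tdgf1 lost, and Tdgf1 also lost its call without TPS line 3, EPS line 1 or EPS line 2. Fibroblast markers also differed. All 16 were detected, their summed CPM was 3867 to 6985 in TPS lines and 404 to 1704 in EPS lines, and 10 of 16 were higher in TPS lines beside those 14.4%. That count rested on single lines, with 3 without TPS line 1, 4 without TPS line 3, 5 without EPS line 1, 3 without EPS line 2, 6 without EPS line 3 and 10 without TPS line 2. In bulk RNA, more cells of a kind and more RNA per cell cannot be told apart, and the part of feeder RNA in the results below was not tested.

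Of the 10 maternal-effect genes, 3 had higher RNA in every TPS line than in any EPS line (Nlrp5, Nlrp14 and Tle6), and 0 were lower in every TPS line. Of the 32608 genes with any count, 17.1% lay higher in every TPS line and 11.3% lower in every TPS line. Ooep and Nlrp4f were the most abundant in both cell types and did not pass the test, and Zar1, Btg4 and Bcl2l10 were at or near 0 in all lines. The filter for low counts left 6 of the 10 genes for testing (Nlrp14, Nlrp4f, Ooep, Padi6, Khdc3 and Tle6). Among these 6, 2 were called higher in TPS lines (Nlrp14 and Tle6) where 14.4% of the 17468 tested genes were, and 0 were called lower where 7.34% were. By DESeq2 the counts were also 2 and 0, and 0 of the 6 were lower at an unadjusted p under 0.05 by either tool. Nlrp5 had counts in TPS lines alone and is given by its levels, with no test.

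**Figure D1:**
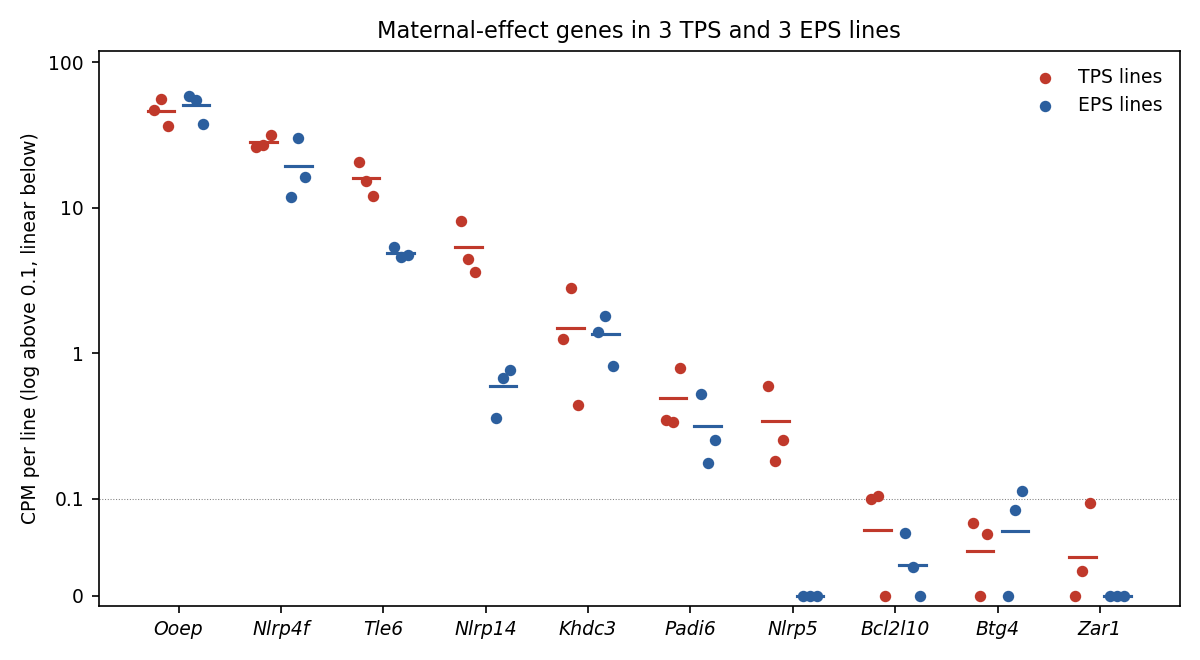
CPM of the 10 genes in each line (points; 3 TPS lines in red, 3 EPS lines in blue), with the group mean as a bar; the axis is logarithmic above 0.1 CPM and linear below. The TPS and EPS points of Tle6, Nlrp14 and Nlrp5 do not overlap, those of Ooep, Nlrp4f, Khdc3 and Padi6 do, and Bcl2l10, Btg4 and Zar1 lie near 0.

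The genes are spread over 6 chromosomes in GRCm38: Ooep, Khdc3, Btg4 and Bcl2l10 on chromosome 9, Nlrp5 and Nlrp14 on 7, and the other members singly on 4 (Padi6), 5 (Zar1), 10 (Tle6) and 13 (Nlrp4f). To compare abundance between genes, CPM was divided by the length of each gene's annotated exons in kb. In EPS lines Ooep came first with 23.6 ± 5.23 CPM per kb (SD, n = 3), at the 85.6th percentile of all tested genes, followed by Nlrp4f with 5.03 ± 2.44 CPM per kb, Tle6 with 1.59 ± 0.134 and Khdc3 with 0.659 ± 0.245, and these neighbours did not overlap in any line. Nlrp14 (0.17 ± 0.0607 CPM per kb) and Padi6 (0.126 ± 0.0715) followed and could not be placed in order, since their lines overlapped. In TPS lines Ooep was again first (21.8 ± 4.53 CPM per kb, 85.5th percentile), then Nlrp4f (7.32 ± 0.726) and Tle6 (5.19 ± 1.37), whose lines did not overlap. There Nlrp14, at 1.53 ± 0.668 CPM per kb, came before Khdc3 (0.735 ± 0.59) by its mean, but their lines overlapped, as did those of Khdc3 and Padi6 (0.195 ± 0.103), while Nlrp5 (0.0712 ± 0.0461) lay below Padi6 in every line. By percentile, Nlrp14 stood at 33.5 in TPS and 12.5 in EPS lines and Tle6 at 57.9 and 38.1.

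To show the DNA at the start of the genes, the 250 bases before each RefSeq start were read for the 8 genes that have an entry (build GRCm38.p6), and the part outside the annotated gene and any exon is printed for 4 of them. Nlrp5 and Tle6 are shown as genes whose TPS lines all exceeded the EPS lines, Padi6 as a complex member not called, and Ooep as the most abundant. Each runs 5′ to 3′ in the gene's direction. Capitals mark the E-box letters CANNTG, which reads the same on both strands and is the kind of site that basic helix-loop-helix factors of the germ line bind, and TAATTG, a NOBOX-type letter string, on either strand.
Nlrp5, chr7:23385639-23385888, plus strand: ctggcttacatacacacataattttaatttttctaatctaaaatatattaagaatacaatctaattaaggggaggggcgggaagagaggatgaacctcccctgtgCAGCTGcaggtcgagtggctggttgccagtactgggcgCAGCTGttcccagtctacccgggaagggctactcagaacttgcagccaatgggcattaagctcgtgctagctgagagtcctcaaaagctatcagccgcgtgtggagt
Tle6, chr10:81601074-81601150, minus strand: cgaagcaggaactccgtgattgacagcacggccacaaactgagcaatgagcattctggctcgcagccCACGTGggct
Padi6, chr4:140742644-140742893, minus strand: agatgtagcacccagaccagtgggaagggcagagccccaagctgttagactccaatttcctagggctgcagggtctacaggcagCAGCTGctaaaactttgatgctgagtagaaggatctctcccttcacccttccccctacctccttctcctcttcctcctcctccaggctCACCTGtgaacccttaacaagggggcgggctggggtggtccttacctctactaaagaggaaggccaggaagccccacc
Ooep, chr9:78378726-78378838, minus strand: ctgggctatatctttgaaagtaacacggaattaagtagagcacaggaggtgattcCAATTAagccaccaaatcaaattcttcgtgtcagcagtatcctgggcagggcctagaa
The stretch of Nlrp5 holds 2 E-boxes and so does that of Padi6. Each of the 10 windows of the 8 genes (Nlrp5 and Tle6 have 2 starts each) held at least 1 CANNTG, which 66.2% of 32851 RefSeq windows of this length do. CACGTG, a form of CANNTG and counted in it too, was found 2 times in the first window of Tle6 and in no other, with 6.02% of all windows holding it. TAATTG was found in the Ooep window alone (7.17% of all windows), and AGGTCA, the letters of a nuclear receptor half-site, on either strand in the second Tle6 window and in that of Nlrp4f (14% of all windows). These matches are a description of the letters in the windows.

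TLE6, a protein of the Groucho/TLE family, is a core component of the subcortical maternal complex, and its gene (ENSMUSG00000034758.12) lies on the minus strand of chromosome 10 from 81590904 to 81601073. Its CPM was 20.5, 15.4 and 12.1 in TPS lines 1, 2 and 3, and 5.39, 4.62 and 4.72 in EPS lines 1, 2 and 3. The lowest TPS line was above the highest EPS line, and the EPS lines lay close together. The means were 16 ± 4.22 CPM and 4.91 ± 0.415 CPM (SD, n = 3 each), which was a 3.26-fold difference (log2 fold change 1.71, SE 0.26, edgeR adjusted p = 0.00593). The 12 libraries gave the same separation, with 183 to 448 counts in TPS and 74 to 88 in EPS libraries. Tle6 stayed past the threshold in all 15 alternative settings of the fit.

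NLRP14 belongs to the germ-line NLR proteins and is needed in the mother for embryos to pass the first divisions. Its gene (ENSMUSG00000016626.10) lies on the plus strand of chromosome 7 from 107166990 to 107198102. CPM values were 8.09, 4.48 and 3.65 in TPS lines 1 to 3 and 0.359, 0.677 and 0.768 in EPS lines 1 to 3. Each TPS line was well above each EPS line. The means, 5.41 ± 2.36 CPM and 0.602 ± 0.215 CPM, differed by 8.92-fold (log2 fold change 3.16, SE 0.472, adjusted p = 0.00549), and Nlrp14 also stayed past the threshold in all 15 alternatives. TPS libraries held 44 to 201 counts and EPS libraries 0 to 18, and each EPS line had some.

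NLRP5, also called MATER, is the NLR protein of the complex, and its gene (ENSMUSG00000015721.18) spans chromosome 7 from 23385889 to 23441922 on the plus strand. It had 24, 7 and 8 counts in TPS lines 1, 2 and 3, that is 0.6, 0.181 and 0.254 CPM, and 0 counts in every EPS library. The 0 in EPS lines allowed up to 3 counts in a line, which is 0.0979 CPM in the line where they weigh most, and the TPS mean of 0.345 ± 0.223 CPM was at least 3.52-fold higher than that floor. In TPS line 1, 21 of the 24 counts came from technical replicate 2 and 3 from technical replicate 1. Without TPS line 1 the TPS mean was at least 2.22-fold above the floor. Nlrp5 was detected in all 6 TPS libraries and in 0 of 6 EPS libraries, at a level of a few counts.

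**Figure D2:**
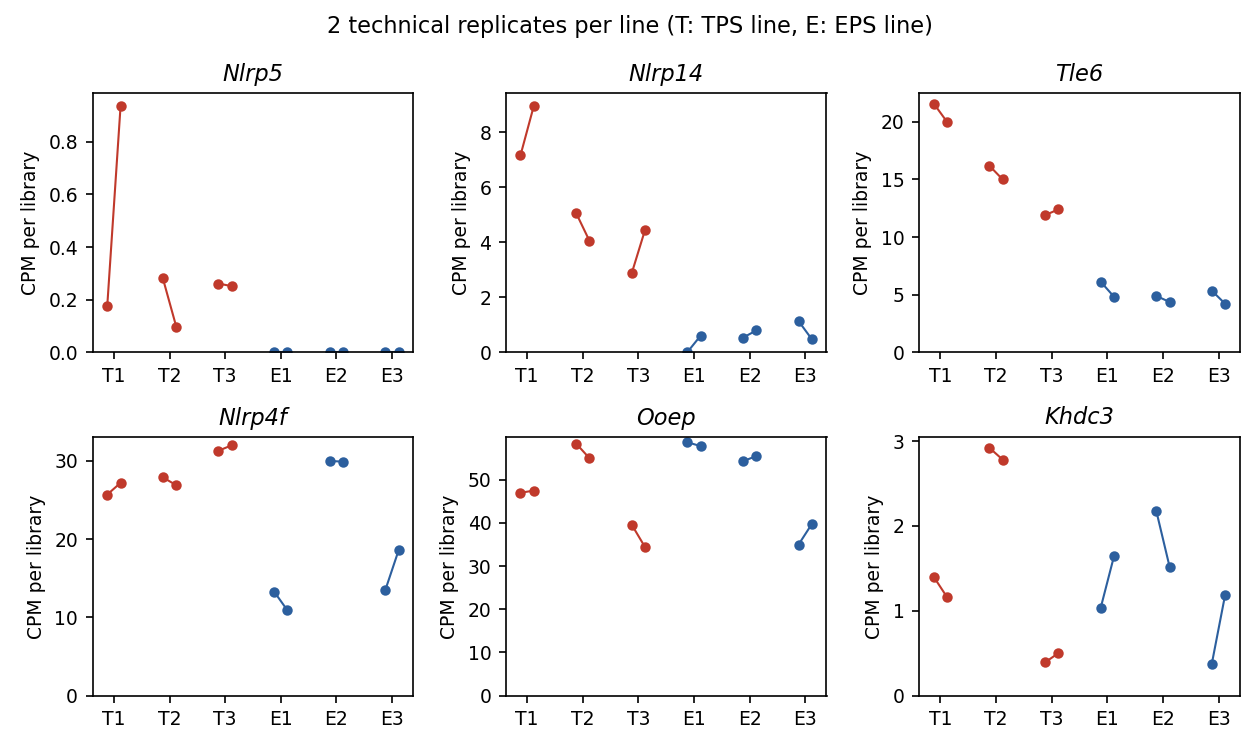
CPM per library of 6 genes, with the 2 technical replicates of a line joined (T1 to T3 are TPS lines, E1 to E3 EPS lines; each axis starts at 0). The replicates of TPS line 1 lie far apart for Nlrp5 (0.175 and 0.937 CPM), while those of Tle6, Nlrp4f and Ooep lie close together.

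OOEP is a KH-domain subunit of the complex, and Ooep (ENSMUSG00000032346.7, minus strand of chromosome 9, 78376109 to 78378725) was its most abundant transcript here. It had 46.8, 56.1 and 36.7 CPM in TPS lines 1 to 3 and 58.5, 55.3 and 37.7 CPM in EPS lines 1 to 3. The groups overlapped over nearly their whole range, and in both the line numbered 3 was the lowest. The log2 fold change was -0.12 (SE 0.223, adjusted p = 0.738), with means of 46.5 ± 9.69 and 50.5 ± 11.2 CPM, and its sign turned with the scaling of the libraries (0.04 without composition factors).

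NLRP4F is an NLR protein described as an interactor of the complex, and Nlrp4f (ENSMUSG00000032999.10, minus strand of chromosome 13, 65177111 to 65205977) was the second most abundant. Its CPM was 26.3, 27.2 and 31.5 in TPS lines 1 to 3 and 11.9, 30.1 and 16.4 in EPS lines 1 to 3. The TPS lines lay close together, 2 EPS lines were below all of them and EPS line 2 lay among them. The means of 28.3 ± 2.81 and 19.5 ± 9.45 CPM did not differ beyond this spread (log2 fold change 0.54, SE 0.324, adjusted p = 0.266). Without EPS line 2 the log2 fold change was 0.98 with adjusted p = 0.0402, the only one of 15 alternatives in which Nlrp4f was called, and over the alternatives it ran from 0.26 to 0.98. Its relatives are close in sequence: the longest transcript of Nlrp4f matched that of Nlrp4c at 81.5% identity over 87.6% of its length and Nlrp4g at 92.6% over 57.9%. How the counting treated reads shared between them is not given in the sources used here.

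KHDC3, also called FILIA, is a further KH-domain subunit. Khdc3 (ENSMUSG00000092622.8, plus strand of chromosome 9, 73101836 to 73104438) had 1.25, 2.82 and 0.445 CPM in TPS lines 1 to 3 and 1.4, 1.82 and 0.825 CPM in EPS lines 1 to 3. Both the highest and the lowest of the 6 values were in TPS lines, and, as for Ooep, the line numbered 3 was the lowest in each group. The log2 fold change of 0.16 (SE 0.651, adjusted p = 0.881) had no stable sign and ran from -0.67, without TPS line 2, to 0.59 in the alternatives.

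PADI6 is the oocyte member of the peptidylarginine deiminases and is needed for the cytoplasmic lattices. Padi6 (ENSMUSG00000040935.12, minus strand of chromosome 4, 140727355 to 140742643) had 0.35, 0.337 and 0.794 CPM in TPS lines 1 to 3 and 0.522, 0.177 and 0.256 CPM in EPS lines 1 to 3, from 2 to 14 counts per library. The groups overlapped, and at this depth the log2 fold change of 0.62 (SE 0.584, adjusted p = 0.477) was not distinguishable from 0. It ran from 0.11 without TPS line 3 to 1.14 without EPS line 1.

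**Figure D3:**
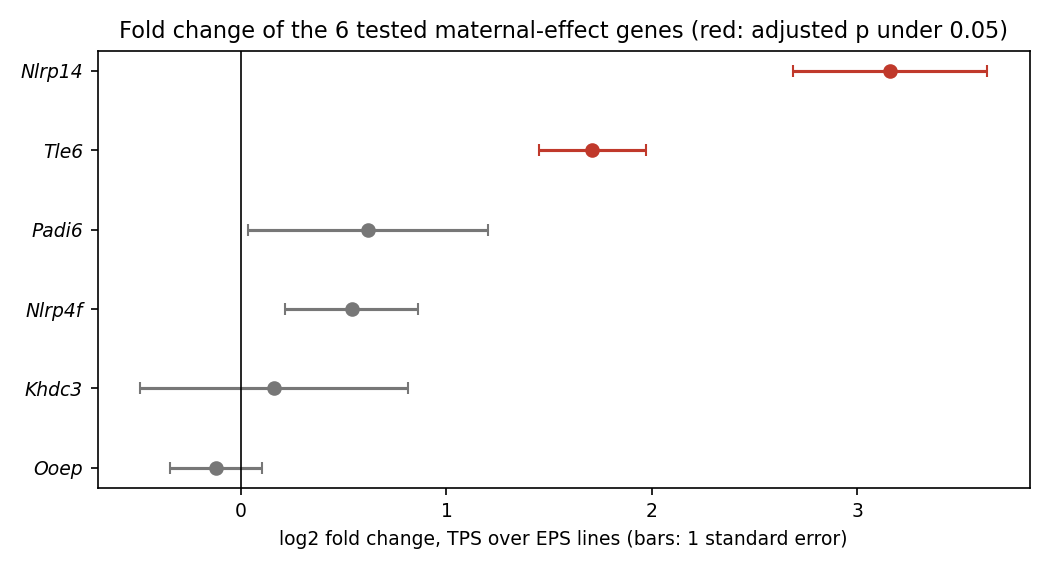
Log2 fold change of TPS over EPS lines for the 6 tested genes, with bars of 1 standard error; red marks an adjusted p under 0.05. Nlrp14 (3.16) and Tle6 (1.71) lie above 0 by several standard errors, and Padi6, Nlrp4f, Khdc3 and Ooep do not.

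The remaining 3 genes gave too few counts to compare. Zar1 (ENSMUSG00000063935.3, minus strand of chromosome 5, 72576806 to 72581254) had 0, 1 and 3 counts in TPS lines 1 to 3 and 0 in EPS lines. Its sequence has a near-identical copy, Gm42668 (96.3% identity over 100% of the transcript). No reads were counted for the copy (0 counts), but reads that match both may have been dropped. Btg4 (ENSMUSG00000032056.10, plus strand of chromosome 9, 51060901 to 51119875) had 3, 0 and 2 counts in TPS lines and 0, 3 and 4 in EPS lines, and it overlaps Layn on the opposite strand, which had 1843 counts in all. Bcl2l10 (ENSMUSG00000032191.6, plus strand of chromosome 9, 75347758 to 75351632) had 4, 4 and 0 counts in TPS lines and 2, 1 and 0 in EPS lines. Differences of this size were not detectable at this depth.

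The median log2 fold change of the 6 tested genes was 0.58, beside -0.00 for all tested genes, which is a description, since Padi6, 1 of the 2 genes at its middle, reached 10 counts in every TPS line and in 1 EPS line. For the wider oocyte program, lists of related genes were counted in the same fit. Of 11 other oocyte NLRP genes and complex partners, 5 were tested. By edgeR 1 was called higher and 0 lower, beside 14.4% and 7.34% of all tested genes. By DESeq2, and with the 12 libraries as separate samples, 1 was lower. The one called higher was Nlrp4c, another germ-line NLR gene, which passed the filter through the TPS lines alone. It stood at 38.7, 32.5 and 18.5 CPM in TPS lines 1 to 3 and 0.131, 0.235 and 0.0285 CPM in EPS lines 1 to 3, which no EPS line approached. Its levels and the count of this list are a description for that reason. Nlrp2, Nlrp4d and Nlrp9a had 0 counts, and Zbed3, which encodes a complex partner, had a log2 fold change of -0.70 with edgeR adjusted p = 0.0768.

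Of 22 other oocyte genes 4 were tested and 2 of these, Sohlh2 and Nobox, were called higher, beside the same 14.4%, but Nobox passed the filter through the TPS lines alone, so the count is a description. Sohlh2, a helix-loop-helix factor of early oocytes and spermatogonia, had 109, 83.5 and 50.3 CPM in TPS lines 1 to 3 and 6.56, 2.62 and 2.22 CPM in EPS lines 1 to 3 (log2 fold change 4.41, SE 0.499, adjusted p = 0.00251), and kept its call in all 15 alternatives. Nobox, an oocyte homeobox factor, had 0.275, 0.285 and 0.763 CPM in TPS lines and 0.0326, 0.118 and 0 CPM in EPS lines, given as a description, and lost its call in 8 of 11 alternatives, including the omission of any single line. The defining markers of oocytes were low in both groups: Oosp1 had 0 counts, Bmp15, Zp1, Zp2, Gdf9 and Figla had at most 0.575 CPM in any line, and the summed CPM of the 8 markers was 8.91 to 11.6 in TPS and 4.15 to 11.5 in EPS lines. Most of that sum was Zp3, a zona pellucida gene, with 9.49, 8.16 and 10.3 CPM in TPS lines and 3.82, 10.8 and 5.24 CPM in EPS lines, which overlapped (adjusted p = 0.404).

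Other maternal-effect genes are expressed widely. All 20 of this list were tested, with a median log2 fold change of -0.13. By edgeR 0 were higher and 3 were lower, where 14.4% of all tested genes were higher and 7.34% lower. These were Zfp57, which protects imprints (-1.02, adjusted p = 0.036), Brwd1, a bromodomain gene (-0.65, adjusted p = 0.0356), and Ezh2, the H3K27 methyltransferase (-0.51, adjusted p = 0.0253). Each lost its call in 7 of 15 alternatives. The count higher was 1 by DESeq2, with upper quartile factors, without composition factors and without EPS line 2, and 2 with 12 separate libraries. The count lower was 7 with 12 separate libraries. It was 0 without composition factors, with the replicate block and without TPS line 1, TPS line 2 or EPS line 2. Of 21 genes of the CCR4-NOT complex and other deadenylation partners of BTG4, 0 were higher and 1 was lower (median -0.15), the deadenylase gene Cnot8, at -0.47 with adjusted p = 0.0346. That call did not survive leaving out any single line. With the 12 libraries as separate samples 1 gene of this list was higher and 6 were lower. By DESeq2 0 were higher and 2 lower. The partners of BTG4 were thus expressed in both cell types while Btg4 itself was near 0.

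Family relatives of the 10 genes were also counted, and 17 of 18 were tested, with 2 higher, 3 lower and a median of -0.19, beside the same 14.4% higher and 7.34% lower over all tested genes. Padi4, whose product citrullinates histones, was lower in TPS lines, with 4.27, 4.77 and 3.59 CPM against 13.4, 14.2 and 8.74 CPM in EPS lines (log2 fold change -1.53, adjusted p = 0.0102, called in all 15 alternatives). Padi2 was lower as well (-2.14, adjusted p = 0.0297), and so was the Groucho corepressor gene Tle3 (-0.89, adjusted p = 0.0199). Khdc1a, a KH-domain gene of the oocyte and 2-cell embryo, was one of the 2 called higher but passed the filter through the TPS lines alone, so its levels of 0.286 to 2.67 CPM in TPS lines and 0 to 0.171 CPM in EPS lines, and the count of 2, are a description. Tle1, named after its value was seen since it is the remaining call, was higher (0.66, adjusted p = 0.0346). On leaving out each line in turn, Padi2 and Tle1 each lost the call in 5 of 6 fits, and Tle3 and Khdc1a in 4. Without TPS line 1 the list had 0 called higher and 1 lower. Tle6 and Tle3 thus had opposite signs within one family.

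The nearest protein-coding gene on either side of each gene was compared to see whether neighbours shared the difference. Of these 20 neighbours, 13 were tested, with 2 called higher and 3 lower, beside 14.4% and 7.34% of all tested genes. Of the 3 tested neighbours of Tle6 and Nlrp14, 0 were called: Tle2, 59 bases from Tle6, had a log2 fold change of 0.74 (adjusted p = 0.169), BC025920 on the other side -0.45 (adjusted p = 0.379), and Rbmxl2, 11.3 kb from Nlrp14, -0.20 (adjusted p = 0.526). Neither neighbour of Nlrp4f passed the filter. Around Nlrp5 neither Nlrp4e nor Vmn1r167 was tested, but Nlrp4e, a germ-line NLR gene 23.6 kb away, had a mean of 0.201 ± 0.283 CPM in TPS lines and 0 in EPS lines, with no counts in TPS line 3. Ooep, which was not called, lies between Dppa5a, a KH-domain pluripotency gene 7.93 kb away that was lower in TPS lines (-1.03, adjusted p = 0.0108), and Ddx43, a germ-line helicase gene 17.1 kb away that was higher (1.14, adjusted p = 0.0486). Both neighbours of Padi6 were lower, Padi4 at 3.22 kb and Rcc2, a mitotic regulator, at 4.13 kb (-0.51, adjusted p = 0.0442). Gnb5, a G protein subunit gene 1.88 kb from Bcl2l10, was higher (0.95, adjusted p = 0.0302), and Mapk6 on its other side was not called, as were Rab27a and Rsl24d1 beside Khdc3, Nfxl1 beside Zar1 and Sik2 beside Btg4.

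**Figure D4:**
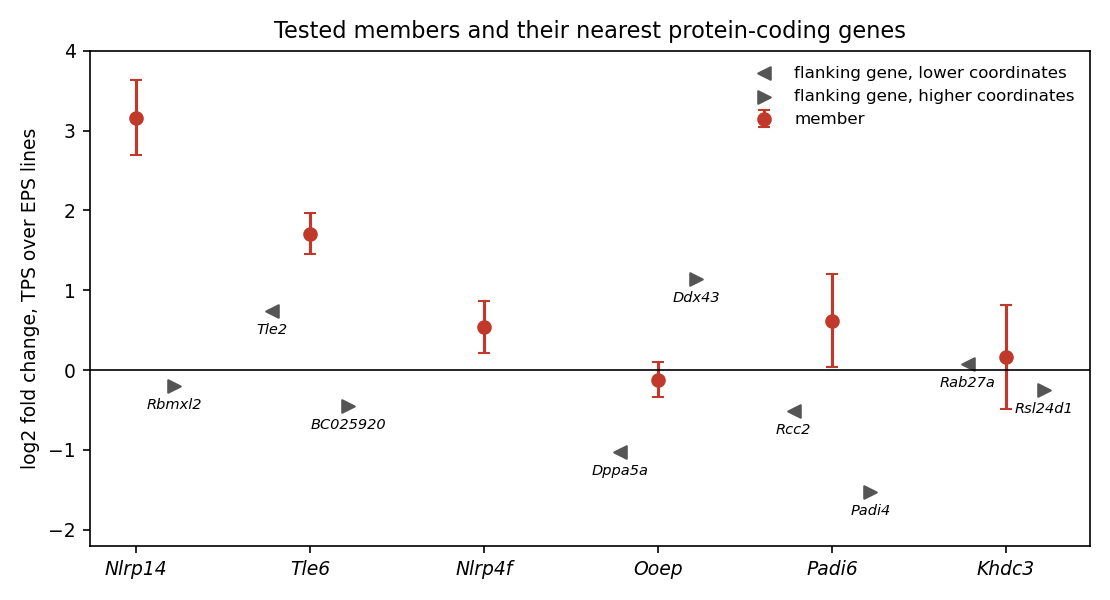
Log2 fold change of TPS over EPS lines for the 6 tested genes (red, with 1 standard error) and their tested protein-coding neighbours at lower and higher coordinates (grey triangles). Tle6 and Nlrp14 stand above their neighbours, and Ooep lies between Dppa5a (-1.03) and Ddx43 (1.14).

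The genes most like the 3 most abundant ones were found by Pearson's correlation of log2(CPM + 0.5) over the 6 lines, given as a description, since 6 points that share the group difference leave many genes with a high value. For Tle6 these were Muc13 (r = 0.9985), Otulinl (0.9973) and D630003M21Rik (0.9968), all with positive log2 fold changes, and 658 tested genes had r above 0.95. For Nlrp4f, where EPS line 2 sat with the TPS lines, they were Zmpste24 (r = 0.9947), Derl1 (0.9942) and Fmr1nb (0.9908), with 44 genes above 0.95. For Ooep they were Pstpip2 (r = 0.9920), 1110035H17Rik (0.9890) and Fpgs (0.9883), with 23 genes above 0.95. The patterns of the 3 genes thus differed, Tle6 following the cell type, Nlrp4f setting EPS lines 1 and 3 apart, and Ooep setting the line numbered 3 of each group apart.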

How the data were processed

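Raw gene counts of 12 libraries were used as deposited. Per the labels and the study's methods, the authors made libraries from oligo(dT)-enriched RNA, trimmed paired-end reads with fastp 0.19.7, mapped them to GRCm38.p6 with STAR 2.7.3a and deposited whole-number counts per gene. The counting tool, annotation and use of strand are not given in the sources used here, so overlapping and near-identical genes could share reads. Gene IDs were matched to GENCODE M21 without version. Technical replicates were summed per line, and the groups of 3 lines each were set against each other in edgeR 4.0.16 (R 4.3.3; TMM, filterByExpr, quasi-likelihood test, Benjamini-Hochberg adjustment over all tested genes, threshold 0.05). DESeq2 1.42.0, other scalings and filters, single technical replicates, 12 separate libraries, a replicate block, a threshold of 0.01 and omission of each line were alternatives. The alternatives counted for single genes are the refits, judged at 0.05, and leave out the threshold of 0.01. Transcript copies were searched with blastn 2.17.0. Library totals of 13676051 to 21821707 counts set the precision, and floors cover counting error only. Named genes were the 10 genes, up to 4 called genes per list with the largest change, the nearest protein-coding genes and the most correlated genes. Tle1, Zbed3, Zfp352, genes at 0 counts, overlapping or similar genes, and the oocyte and germ cell markers that were not called fall outside this rule and were named after their values were seen. The members and lists were chosen with earlier results of these data known.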

Additional observations from a re-analysis of the deposited data

How the results depend on the processing

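Of the genes tested, Nlrp14 (log2 fold change 2.74 to 3.37) and Tle6 (1.49 to 1.87) kept direction and call in all 15 alternatives, and the count of maternal-effect genes called higher was 2 to 3 on leaving out each line in turn, with 0 lower each time. The sign of Ooep turned to 0.04 without composition factors and to 0.02 without TPS replicate 3, and it ran from -0.30 to 0.02 on leaving out each line. That of Khdc3 turned to -0.10 with the replicate block, -0.67 without TPS replicate 2 and -0.11 without EPS replicate 3, within -0.67 to 0.59 on leaving out each line. Btg4 came to 0.00 without EPS replicate 3, and Bcl2l10 to -0.10 with technical replicate 2 alone, both in the fit of all genes with any count. Repeats of that fit for Zar1, Nlrp5, Btg4 and Bcl2l10 were chosen after seeing the data. The causes were not tested.

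Of all tested genes, 2509 were higher and 1282 lower, which became 873 and 258 at an adjusted p under 0.01. With the 12 libraries as separate samples they were 4067 and 3610. That setting takes technical replicates as independent samples, so it understates the spread between lines. It is among the 15 alternatives of Nlrp14 and Tle6. Without composition factors 745 were lower, all genes shifted by a median of 0.14 on the log2 scale, and 80% of calls were higher where 66.2% were before. With the replicate block by line number 721 were lower. On leaving out each line, 1617 to 2234 were higher and 493 to 1047 lower. With the replicate block 3 of 16 fibroblast markers were higher, and at 0.01 the count was 0, while 1 of 8 pluripotency markers was lower at 0.01. The 6 lists of related genes, including the 2-cell genes, held 5, 4, 20, 21, 17 and 10 tested genes. Of these 7 were called lower, where 7.34% of all tested genes were. That count became 3 without composition factors, 18 with 12 libraries, 3 with technical replicate 1 alone and 2 with the replicate block. It was 0 at 0.01 and 1 to 6 on leaving out each line. Over all tested genes, lines of the same number did not deviate together (correlations of -0.121 to 0.0377), so the main fit did not pair them. With 3 lines per group, this cannot tell whether lines of one number are related. The replicate block left Nlrp14 and Tle6 called. Counts of 0 to 21 per library limit what can be said of Nlrp5, Zar1, Btg4, Bcl2l10 and Padi6.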

Other observations

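Among 5 germ cell markers, 2 were higher in TPS lines and 0 lower by edgeR. Of all tested genes, 14.4% were higher and 7.34% lower. By DESeq2, and with the 12 libraries as separate samples, 1 marker was lower. Dazl, an RNA-binding protein gene of germ cells, had 143, 76.3 and 51.1 CPM in TPS lines 1, 2 and 3 and 3.75, 1.21 and 3.67 CPM in EPS lines 1, 2 and 3 (log2 fold change 4.97, SE 0.562, edgeR adjusted p = 0.00251). Mael, a gene of the piRNA pathway, had 25.1, 20.8 and 16.8 CPM in TPS lines and 6.66, 3.18 and 4.27 CPM in EPS lines (2.15, SE 0.321, adjusted p = 0.00543). Ddx4 (0.27, adjusted p = 0.437), Sycp3 (-0.02, adjusted p = 0.968) and Tex14 (-0.57, adjusted p = 0.0623) were not called by edgeR, and each was detected in every line.

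TPS line 1 had the highest and TPS line 3 the lowest level of Tle6, Nlrp14, Nlrp4c, Sohlh2 and Dazl, genes set side by side after their values were seen. Nobox (0.275, 0.285 and 0.763 CPM), Nlrp4f (26.3, 27.2 and 31.5 CPM) and Padi6 (0.35, 0.337 and 0.794 CPM) had TPS line 3 highest instead. Ooep and Khdc3 were highest in TPS line 2, and Nlrp5, at a few counts, was lowest there. The summed CPM of the 2-cell genes was 309 in TPS line 1, 335 in line 2 and 423 in line 3, though its genes differed, with Gm8300 highest in line 1 (18.3, 16.2 and 16.2 CPM) and Zfp352 lowest in line 3 (1.77, 2.77 and 1.59 CPM). That of the fibroblast markers was 6985, 3867 and 4482 in TPS lines 1, 2 and 3. With 3 lines this was not tested.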
